A study of Solanum lycopersicum with 18 samples.

Results

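Longer unannotated loci are stretches of the tomato genome from which transcripts were assembled in red ripe fruit although no Solyc gene ID was attached to them. They were taken as the rows with no gene ID whose locus spans over 300 bp, counted from start to end, in the expression tables of each variety. By this rule H (Heinz) had 2157 among 35566 loci, SM (San Marzano) 2171 among 35773 and RSV (Vesuviano) 2040 among 35627, or 6368 of 106966 rows in the 3 varieties. Fruit of each variety was taken from field-grown plants at Acerra and at Sarno, in the Campania region of southern Italy, and 3 libraries were sequenced from each of the 6 groups, 18 in all. The groups thus were H Acerra and H Sarno, SM Acerra and SM Sarno, and RSV Acerra and RSV Sarno; no plant was treated, and all fruit was collected fully red from plants of whole plots. The fruit of a plot was pooled, and the sources do not say whether the 3 libraries of a group came from 3 plots or from aliquots of 1 pool, so p-values measure the spread between these libraries, which may be technical. Location and everything that differed between the 2 fields cannot be told apart.

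As background, a locus of this kind can hold several sorts of transcript. Long non-coding RNAs, protein-coding genes missed by an annotation, transcribed transposons, extensions of a neighbouring gene beyond its annotated end and RNA from the opposite strand of a gene all appear in this way when transcripts are assembled from reads with the annotation as a guide. Many plant long non-coding RNAs are expressed at low levels and in few conditions, and some tomato long non-coding RNAs are known to take part in fruit ripening. Which of these a single locus is cannot be read from its expression, and the tables give neither the sequence nor the exons of a locus. The XLOC numbers by which the loci are named were assigned anew in each variety, so the same number stands for different loci in 2 varieties. Coordinates are those of the tables, on SL2.40 for H and on each variety's own assembly for SM and RSV.

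Most of these loci lay between genes. Their span was their own, overlapping no row with a gene ID, in 1808 loci of H, 1820 of SM and 1690 of RSV. The median length of these was 1576, 1578 and 1694 bp. The other 349, 351 and 350 loci had exactly the span of a row with a gene ID. In these the length is that of the whole assembled region (median 15831, 21471 and 18891 bp) and not of the transcript. The library kit does not mark strand, so reads of such a locus and of the gene in the same span cannot be told apart where their exons overlap. Of all longer unannotated loci, 320 of H, 347 of SM and 345 of RSV had the span of another unannotated row. For these too the length is that of a region, and 1 region can count as several loci. Close to the length threshold, the 3 shortest members of H spanned 301, 306 and 309 bp with a mean of 12.3, 11.9 and 10.7 FPKM (mapped fragments scaled for transcript length and library size), and the 3 longest unannotated loci left out spanned 293, 294 and 298 bp with a mean of 7.94, 4.44 and 2.08 FPKM. In SM the means were 1.95, 3.14 and 17.6 FPKM just inside (301, 303 and 305 bp) and 11.9, 4.05 and 12.7 FPKM just outside (297, 300 and 300 bp). In RSV they were 1.86, 7.25 and 3.21 FPKM just inside (303, 310 and 314 bp) and 165, 13.8 and 5.85 FPKM just outside (297, 298 and 300 bp).

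All 12 chromosomes carried longer unannotated loci, in proportions that were alike in the 3 varieties. In H a chromosome held 131 to 224 of them; the range was 133 to 210 for SM and 142 to 212 for RSV, and chromosome 1, which has the most genes, held the most in each variety. Relative to annotation, chromosomes 1, 2, 3 and 6 were the sparsest in every variety. In H there were 4.59 per 100 loci with a gene ID on chromosome 3 and 8.34 on chromosome 8; in SM the extremes were 4.88 on chromosome 6 and 8.11 on chromosome 7, and in RSV 4.83 on chromosome 3 and 7.82 on chromosome 8. The varieties differed most in number on chromosome 2, where H had 179 loci, SM 202 and RSV 168, and on chromosome 8, with 197, 164 and 186. Sequence not placed on a chromosome, which the tables call chromosome 0, carried 79, 83 and 77 loci, or 9.05, 9.54 and 8.87 per 100 loci with a gene ID. Among loci of at least 0.5 FPKM it stood further apart, with 31.2, 33.1 and 35.1 longer unannotated loci per 100 annotated ones against 7.37, 7.51 and 7.53 over all chromosomes. No test was made of these counts.

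**Figure D1:**
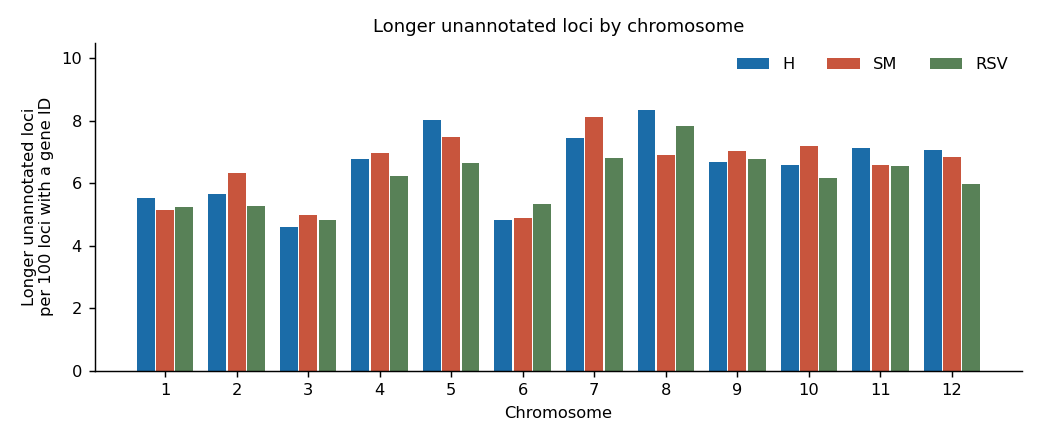
Number of longer unannotated loci per 100 loci with a gene ID (vertical axis) on chromosomes 1 to 12 (horizontal axis) in H, SM and RSV. The bars of the 3 varieties follow each other, with the lowest bars on chromosomes 1, 2, 3 and 6 and the highest bar, 8.34, on chromosome 8 in H.

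The loci were placed between varieties by the gene IDs on either side, or by those whose span they shared. Longer unannotated loci occupied 1577 such intervals in H, 1586 in SM and 1537 in RSV, and 915 of the 2405 intervals seen in any variety held one in all 3. These were 58.0% of the intervals of H, 57.7% of those of SM and 59.5% of those of RSV. A further 357, 333 and 335 intervals held such a locus in H, SM or RSV only. By chromosome, the share of intervals found in all 3 varieties was lowest on chromosome 1 (30.0%, 78 of 260) and highest on chromosome 7 (47.7%, 83 of 174), with 52.8% on chromosome 0. Loci in shared intervals had higher levels, a difference that was not tested. Their median level was 0.883 FPKM in H, 0.988 in SM and 1.15 in RSV, against 0.408, 0.351 and 0.447 FPKM for loci in intervals of 1 variety. An interval without a locus in one variety may hold transcription that was assembled there under a gene ID, which was not tested.

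Some intervals held a run of unannotated loci. One of the largest lay between Solyc08g061930 and Solyc08g061940 on chromosome 8, where 10 loci were listed in H, 6 in SM and 9 in RSV (chr8:47319698-47335180 in H). All 10 of H carried 1 and the same span, so they count as loci of 1 assembled region. Between Solyc12g049620 and Solyc12g049630, 10 were listed in H and none in SM and RSV. In RSV, 8 lay between Solyc01g058700 and Solyc01g058710 and 7 between Solyc08g015720 and Solyc08g015730, where neither H nor SM had any.

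Expression of these loci was low. The minimum used for all tests, 0.5 FPKM as the mean of the 6 libraries, was reached by 1235 longer unannotated loci of H, 1258 of SM and 1273 of RSV. That is 57.3%, 57.9% and 62.4% of them, against 50.3%, 50.1% and 50.6% of loci with a gene ID. Only 1, 3 and 3 of the longer unannotated loci were at 0 in all 6 libraries, against 30.5%, 31.3% and 30.8% of annotated loci. A row with no gene ID is listed because reads assembled there, whereas annotated genes are listed whether or not they were read, so these shares are no comparison of activity. Among loci of at least 0.5 FPKM the median was 1.69 FPKM in H, 1.70 in SM and 1.98 in RSV, against 14.0, 13.8 and 13.8 FPKM for annotated loci. Above 100 FPKM there were 13, 20 and 21 longer unannotated loci. Per library they took 0.775 to 1.60% of the summed FPKM.

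The libraries were not equal in depth or composition. Depth relative to Sarno replicate 1 of the same variety was estimated as the inverse of the commonest FPKM ratio to that library. Only annotated loci above 0 and under 0.15 FPKM in both libraries were used. Relative depth was 0.531 to 0.959 in H Acerra and 0.679 to 1 in H Sarno. In SM it was 0.543 to 0.741 in Acerra and 1 to 1.71 in Sarno, and in RSV 0.638 to 0.714 and 0.924 to 1.19. The number of fragments behind a value was not used here, so no interval is given for a single FPKM. RSV Sarno replicate 3 stood apart. Its FPKM summed to 3279110 against 892841 to 1433620 in the other 17 libraries, and 15 of the 157 longer unannotated loci of at least 10 FPKM in RSV were over 3 times as high there as in any other RSV library. The 5 ripening genes PSY1, PG2a, RIN, ACO1 and E8 summed to 6486 to 21639.9 FPKM in the 18 libraries. PSY1, the phytoene synthase of red fruit, was listed at 0 in the 3 SM Sarno libraries. A pair of genes of chlorophyll a-b binding proteins, markers of green tissue, summed to at most 0.190 FPKM in the 9 Acerra libraries and to between 0.413 and 14.6 FPKM in the 9 Sarno libraries. Solyc03g115900, of this pair, is among the RSV genes that the study lists for a much higher level in Sarno. The choice of the pair was thus not independent of these values. The part of these differences between libraries in the location differences below was not tested.

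The most strongly expressed locus with a span of its own lay in the same gene-poor interval of chromosome 9 in every variety, between Solyc09g055350 and Solyc09g055360, at least 204830 bp from the nearest gene ID. In H it was XLOC_027869 (chr9:35877812-35878869), with 890, 734 and 728 FPKM in the Acerra libraries, against 1272, 821 and 689.9 FPKM in the Sarno libraries. In SM it was XLOC_028003 (chr9:35821606-35822081), with 1701, 607 and 1204 FPKM in Acerra, against 1326, 2494 and 1031 FPKM in Sarno. In RSV it was XLOC_027933 (chr9:35813531-35814154), with 1369, 2042 and 1309.9 FPKM in Acerra, against 1641, 1247 and 9219.5 FPKM in Sarno. The locations overlapped in all 3 varieties, and the last RSV Sarno value, of replicate 3, was 4.52 times the next highest library.

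Unplaced sequence supplied several of the other strong loci. XLOC_000900 in H (375 bp, between Solyc00g008580 and Solyc00g008680) had 390, 372 and 574 FPKM in Acerra, against 717, 567 and 270 FPKM in Sarno. The annotation made by the study describes it as an rRNA intron-encoded homing endonuclease, the class of enzyme encoded within mobile introns, and gives the same words for XLOC_000083, which shares a span of 276468 bp with genes of chromosome 0 (281, 203 and 228 FPKM in Acerra, 290, 189 and 140 FPKM in Sarno). The study made these descriptions with the program Blast2GO, and whether either locus encodes such an enzyme was not tested. XLOC_033031 in RSV, in a span of 145841 bp on chromosome 11 that begins at Solyc11g027640, had 1369.7, 1965 and 1109.6 FPKM in Acerra, against 2598, 1974 and 19915.7 FPKM in Sarno. Its highest value was that of RSV Sarno replicate 3. XLOC_018470 in SM (chr6:41232699-41233832, 204 bp from Solyc06g072850) had 635, 872 and 822 FPKM in Acerra, against 951, 631 and 902 FPKM in Sarno, and no longer unannotated locus was listed in its interval in H or RSV. None of these loci was called between locations (adjusted p of 0.244 to 0.852).

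One strong locus of chromosome 4 varied widely between libraries. It lay between Solyc04g071100 and Solyc04g071110, within 160 bp of the second, and was listed in SM and RSV but not in H. XLOC_012947 in SM had 9.58, 30.1 and 38.2 FPKM in Acerra, against 10.3, 346 and 1244 FPKM in Sarno. XLOC_012884 in RSV had 44.96, 158 and 30.2 FPKM in Acerra, against 1253, 1569 and 178 FPKM in Sarno. The Sarno libraries were the highest in both varieties, but 1 of the 3 in SM lay among the Acerra values. The log2 fold change, here and below Acerra minus Sarno on the log2(FPKM + 0.5) scale, was −2.87 ± 1.65 (SE, adjusted p = 0.323) in SM and −3.55 ± 0.97 (adjusted p = 0.0638) in RSV. Without SM Sarno replicate 1 it was called in SM (−4.85, adjusted p = 0.0185), and without RSV Sarno replicate 3 in RSV (−4.54, adjusted p = 0.0072).

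Matched loci allowed levels to be set side by side across varieties, as a description, since each variety was mapped and normalized on its own. In 573 intervals each variety had exactly 1 longer unannotated locus, and where all were tested (418) the levels followed each other closely across loci, with r of 0.935 between SM and H and 0.909 for both other pairs. These loci are not independent replicates, and they share the same libraries and annotation. In 3 of the 573 every library of 1 variety lay at least 5 times above or below every library of the others, a rule chosen after the values were seen. Between Solyc07g045080 and Solyc07g045090, XLOC_020869 of RSV (chr7:55435989-55439123) had 647, 546 and 512 FPKM in Acerra, against 193, 287 and 233 FPKM in Sarno. The matched XLOC_020832 of H had 6.09, 11.3 and 8.56 FPKM in Acerra, against 0.735, 1.99 and 1.62 FPKM in Sarno, and XLOC_020957 of SM had 3.69, 15.4 and 4.31 FPKM in Acerra, against 4.17, 11.4 and 2.59 FPKM in Sarno. Every RSV library was thus over 10 times higher than every H and SM library. Acerra was above Sarno in RSV (log2 fold change 1.27 ± 0.18, adjusted p = 0.0116) and in H (2.25 ± 0.33, adjusted p = 0.0202), while in SM the locations overlapped (0.30 ± 0.66, adjusted p = 0.803).

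The other 2 such loci stood apart as well, and neither was called between locations in any variety. Between Solyc11g040090 and Solyc11g040100, XLOC_031405 of SM had 0, 0.886 and 0.714 FPKM in Acerra, against 0.0962, 1.21 and 0.662 FPKM in Sarno, against 11.6 to 18.03 FPKM in the H libraries and 16.7 to 22.2 FPKM in the RSV libraries. On unplaced sequence between Solyc00g009660 and Solyc00g009760, XLOC_000897 of RSV had 1029.8 to 6829 FPKM, against 60.5 to 135 FPKM in H and 66.6 to 196 FPKM in SM. The highest of its values was again that of RSV Sarno replicate 3. In H every Acerra value lay above every Sarno value at both loci. The H values were 14.8 to 18.03 FPKM in Acerra against 11.6 to 12.3 FPKM in Sarno on chromosome 11. On unplaced sequence they were 99.7 to 135 FPKM against 60.5 to 95.2 FPKM.

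**Figure D2:**
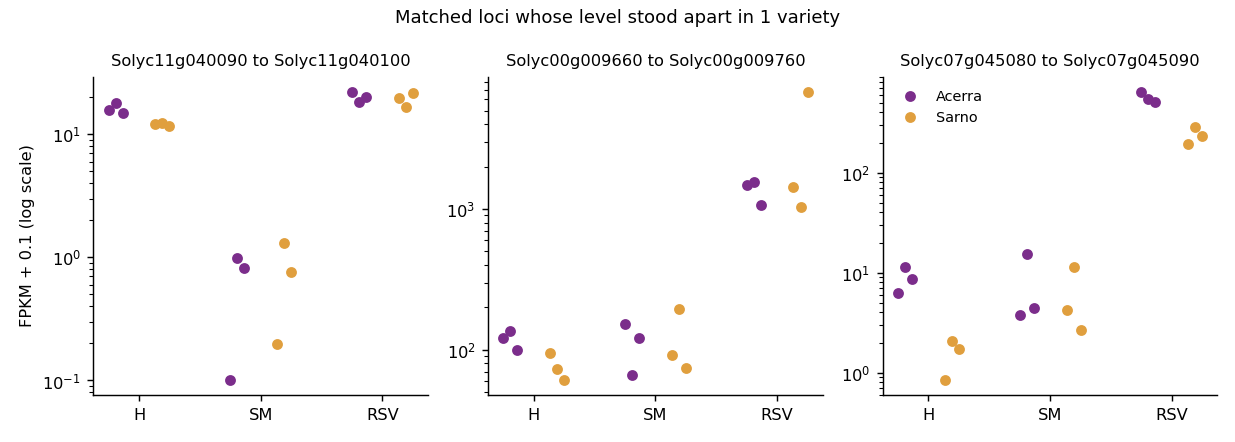
FPKM in each of the 18 libraries (points, log axis, 0.1 added so that a value of 0 can be drawn) at 3 matched loci, named by their flanking genes, for H, SM and RSV with Acerra left of Sarno. At the first locus all 6 SM libraries lie below 2 FPKM, and at the other 2 all 6 RSV libraries lie above every H and SM library.

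The first question was whether expression of these loci differed between fruit grown at Acerra and at Sarno. A locus was called when its adjusted p (limma, Benjamini-Hochberg over all loci tested in the variety) was under 0.05. In H, 88 of 1235 tested longer unannotated loci were called, or 7.13%, where 8.83% of all tested loci were. Of these 62 were higher in Acerra and 26 higher in Sarno, with a background of 6.58% and 2.26% of all loci in these directions. In SM, 86 of 1258 were called (6.84%, background 8.21%), 65 higher in Acerra and 21 higher in Sarno (background 6.07% and 2.14%). In RSV, 147 of 1273 were called (11.5%, background 11.8%), 95 higher in Acerra and 52 higher in Sarno (background 6.11% and 5.72%). In each variety the share was close to or below that of all loci. The 3 Acerra and 3 Sarno values did not overlap in 404 longer unannotated loci of H (32.7%, background 36.9%), 305 of SM (24.2%, background 33.1%) and 446 of RSV (35.04%, background 37.9%).

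In RSV the calls of longer unannotated loci leaned to Acerra more than those of annotated loci did. Among longer unannotated loci 95 calls were higher in Acerra and 52 higher in Sarno, against 1017 and 985 among annotated loci. The split of the longer unannotated loci moved with the setting. It was 39 and 31 with the replicate number as a block, and 129 and 50 with quantile normalization. The median log2 fold change of all tested longer unannotated loci in RSV was 0.13, against −0.02 over annotated loci. In H the medians were 0.05 and 0.10, and in SM 0.07 and 0.02. Of the 966 RSV loci over 1000 bp that were tested, 11.08% were called, 79 higher in Acerra and 28 higher in Sarno. Of the 307 up to 1000 bp, 13.03% were called, 16 higher in Acerra and 24 higher in Sarno. The background in RSV was 11.8% of all tested loci. These splits were not tested against each other.

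The counts depended on single libraries, as did those over all loci. In RSV, leaving out Sarno replicate 3, which stood apart above, raised the calls to 268 (159 higher in Acerra, 109 higher in Sarno, with 4176 of all 18277 loci called), and 142 of the 147 loci called with it were among them. Leaving out any one of the other RSV libraries left 36 to 44 calls, with 589 to 701 of all loci called, against 2167 in the full fit. In H, 5 loci remained called without Acerra replicate 1, where 82 of all loci were called. None remained without Acerra replicate 2 or replicate 3, where limma called only 3 and 4 of all loci. There 232 and 269 longer unannotated loci had an unadjusted p under 0.05. Without Sarno replicates 1 and 2, 42 and 39 were called in H, with 772 and 647 of all loci, against 1598 in the full fit. In SM, 52, 49 and 26 were called without Acerra replicates 1, 2 and 3, and 50 without Sarno replicate 3. Over all SM loci these fits called 796, 580, 358 and 852, against 1490 in the full fit. The split of the H calls also moved with scaling. With each library rescaled by its median ratio, which moved the median of all H loci by over 0.1 to −0.02, 28 were higher in Acerra and 26 higher in Sarno. With quantile normalization, which also moved that median to −0.02, 26 were higher in Acerra and 14 higher in Sarno in H, and 59 and 37 in SM.

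Set against annotated loci of like FPKM, the order of the shares called depended on the FPKM class. From 0.5 to 1 FPKM 2.34% of longer unannotated loci and 3.15% of annotated loci were called in H, 2.66% and 4.19% in SM, and 7.83% and 9.74% in RSV. From 1 to 2 FPKM the shares were 7.32% and 5.98% in H, 5.81% and 4.77% in SM, and 10.4% and 12.1% in RSV. From 2 to 5 FPKM they were 7.27% and 6.34% in H, 8.94% and 7.502% in SM, and 14.6% and 12.9% in RSV, and from 5 to 10 FPKM 13.5% and 7.31%, 8.26% and 8.49%, and 12.4% and 12.7%. From 10 to 50 FPKM they were 13.8% and 8.94% in H, 17.6% and 9.22% in SM, and 15.4% and 11.7% in RSV. Above 50 FPKM the shares were 12.1% and 15.3% in H, 4.88% and 9.83% in SM, and 12.5% and 11.6% in RSV, over no more than 41 longer unannotated loci in a variety. In all 3 varieties the share of longer unannotated loci was thus the smaller one from 0.5 to 1 FPKM and the larger one from 2 to 5 and from 10 to 50 FPKM, and in the other 3 classes the order differed between varieties. From 10 to 50 FPKM there were 109, 108 and 117 longer unannotated loci, of which 15, 19 and 18 were called. The 15 of H were all higher in Acerra, and the 19 of SM were split into 9 higher in Acerra and 10 higher in Sarno. Of the annotated loci called in this class, 462 were higher in Acerra and 132 higher in Sarno in H. In SM these were 422 and 185. Replicates of all tested longer unannotated loci were spread more widely than those of annotated loci, with a median within-location SD of 0.34, 0.33 and 0.29 on the log2 scale in H, SM and RSV against 0.22, 0.20 and 0.19. In the class from 0.5 to 1 FPKM the SDs were close to each other (0.34 and 0.34 in H, 0.33 and 0.32 in SM, 0.29 and 0.30 in RSV), and from 10 to 50 FPKM they were 0.31 and 0.19, 0.26 and 0.16, and 0.24 and 0.16. No test was made between the 2 kinds of locus.

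**Figure D3:**
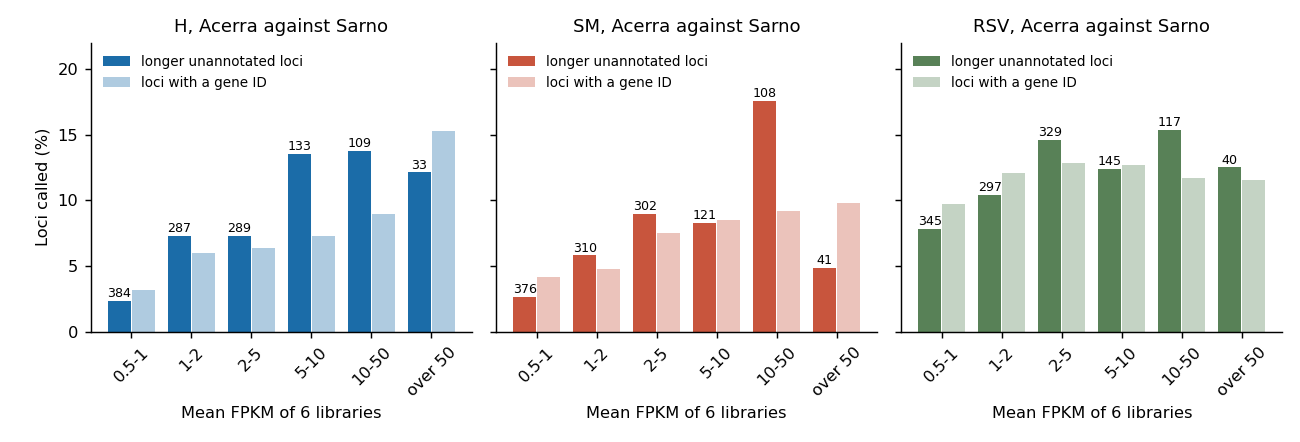
Percent of tested loci called between Acerra and Sarno (vertical axis) by class of mean FPKM over the 6 libraries (horizontal axis) in H, SM and RSV, with longer unannotated loci in full colour, the number tested printed above each, and loci with a gene ID in pale colour. Longer unannotated loci lie below annotated ones from 0.5 to 1 FPKM and above them from 10 to 50 FPKM in all 3 varieties, while the order above 50 FPKM differs between varieties.

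On chromosome 4 of H, 14 loci were called higher in Acerra and 1 higher in Sarno among 105 tested (14.3%, against 9.91% of all tested loci of that chromosome), and on chromosome 12 of H 6 and 7 among 95 (13.7%, against 8.86%). These were the largest shares in H, and chromosomes 1 and 3 had the smallest (1.64% and 2.17%, against 7.86% and 7.55%). In SM the shares on chromosomes 1 to 12 ran only from 5.15% on chromosome 12 (against 8.05% of all its loci) to 8.93% on chromosome 9 (against 6.95%). In RSV they ran from 8.25% on chromosome 3 (against 11.2%) to 14.9% on chromosome 5 (6 higher in Acerra, 8 higher in Sarno, against 12.6%). Chromosome 8 held the most calls in RSV, 9 and 7 among 116 (13.8%, as for all its loci). No test was made between chromosomes. Few loci were present at 1 location only. Loci above 0 in all 3 Acerra libraries and at 0 in all 3 Sarno libraries were 3 for H, 2 for SM and 1 for RSV (0.139%, 0.0921% and 0.0490% of the longer unannotated loci, against 0.0956%, 0.0727% and 0.0870% of all loci). The reverse held for 19, 10 and 17 (0.881%, 0.461% and 0.833%, against 0.408%, 0.394% and 0.699%). The Sarno libraries of SM and RSV were deeper than the Acerra ones, as given above, and the part of depth in these counts was not tested. A mean of 1 FPKM at the location was reached by 1 of the Sarno loci in H and 4 of those in RSV. The highest, XLOC_033132 on chromosome 12 of RSV, was at 0 in the 3 Acerra libraries and had 10.48, 8.12 and 0.111 FPKM in Sarno, so that 2 of the 3 Sarno libraries carried its level.

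In H, the largest increase in Acerra was at XLOC_020116 (chr6:32968444-32969540), 1514 bp from Solyc06g053640. It had 7.34, 11.0 and 7.22 FPKM in Acerra, against 0, 0.498 and 0.251 FPKM in Sarno (log2 fold change 3.62 ± 0.31, adjusted p = 0.0124). The 2 locations lay far apart, and no longer unannotated locus was listed in this interval in SM or RSV. XLOC_026178, 302 bp from Solyc09g073010, had 3.15, 14.0 and 11.6 FPKM in Acerra, against 1.03, 0.872 and 1.78 FPKM in Sarno (2.36 ± 0.53, adjusted p = 0.0464). Its lowest Acerra value was within 2-fold of the highest Sarno value.

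Further H loci that rose in Acerra shared the span of genes. XLOC_012962 shares the span chr4:58014983-58032890, which begins at Solyc04g074410, and had 172, 220 and 233 FPKM in Acerra, against 9.25, 38.1 and 45.5 FPKM in Sarno (3.00 ± 0.57, adjusted p = 0.0329). Solyc04g074410, the first of 5 gene IDs in that span, moved with it. This gene had 342 ± 73.0 FPKM in Acerra, against 64.9 ± 45.3 FPKM in Sarno (SD, n = 3 each), a log2 fold change of 2.68 ± 0.60 (adjusted p = 0.0451). The matched locus of RSV, XLOC_014796, also rose in Acerra, with 25.1, 18.7 and 17.5 FPKM there and 4.47, 2.19 and 4.84 FPKM in Sarno (2.32 ± 0.29, adjusted p = 0.0081), again together with Solyc04g074410 (1.60 ± 0.29, adjusted p = 0.0208). Further along chromosome 4, XLOC_014779 in the span of Solyc04g074490 had 6.04, 11.1 and 7.80 FPKM in Acerra, against 1.37, 0.894 and 0.671 FPKM in Sarno (2.56 ± 0.28, adjusted p = 0.0174), while the gene itself did not pass the threshold (0.87 ± 0.29, adjusted p = 0.103).

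Another lay at Solyc02g087530 and Solyc02g087540 on chromosome 2. XLOC_006461, given the words ATP binding by the study's annotation, had 45.2, 73.8 and 80.7 FPKM in Acerra, against 5.95, 25.8 and 11.95 FPKM in Sarno (2.34 ± 0.51, adjusted p = 0.0423). In SM a locus with its own span, XLOC_008159, lay 4402 bp from Solyc02g087540 and had 93.8, 146 and 136 FPKM in Acerra, against 9.03, 20.5 and 8.14 FPKM in Sarno (3.36 ± 0.36, adjusted p = 0.0045). Both were high in every Acerra library. They lie in different intervals by the rule used, so they were not matched.

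Lower in Acerra in H were loci of modest level. XLOC_008548 in the span of Solyc02g076680 had 0, 0 and 0.307 FPKM in Acerra, against 7.59, 3.05 and 1.92 FPKM in Sarno (−2.81 ± 0.47, adjusted p = 0.0261). XLOC_017267, 13253 bp from Solyc05g041100, had 0.675, 0.606 and 1.45 FPKM in Acerra, against 4.59, 6.30 and 4.42 FPKM in Sarno (−2.02 ± 0.27, adjusted p = 0.0186). XLOC_022639 on chromosome 7 had 0.166, 0 and 0.165 FPKM in Acerra, against 4.59, 1.56 and 0.982 FPKM in Sarno (−2.04 ± 0.47, adjusted p = 0.0477). XLOC_025259, 1 of the run of 10 on chromosome 8, had 0.122, 0 and 0.403 FPKM in Acerra, against 1.55, 1.37 and 5.18 FPKM in Sarno (−2.09 ± 0.48, adjusted p = 0.0479). None of the 12 H loci with the largest differences kept its call in all 6 fits that left out 1 library: the most was 4, for XLOC_020116, XLOC_014779 and XLOC_032879, and XLOC_022623 kept it in none.

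In SM, XLOC_033111 (chr11:9447543-9447912), 49988 bp from Solyc11g018780, showed the largest difference among the named loci of any variety. It had 38.8, 35.7 and 40.0 FPKM in Acerra, against 0.554, 2.16 and 1.79 FPKM in Sarno (4.37 ± 0.34, adjusted p = 0.0017). The matched loci of H (1.89, adjusted p = 0.407) and RSV (1.51, adjusted p = 0.105) did not pass the threshold. XLOC_033096, 508 bp from the locus of Solyc11g010650 and Solyc11g010660, had 11.0, 10.2 and 11.9 FPKM in Acerra, against 1.54, 1.93 and 0.472 FPKM in Sarno (2.77 ± 0.34, adjusted p = 0.0067). The gene beside it had 31.6 ± 3.75 FPKM in Acerra, against 38.3 ± 6.36 FPKM in Sarno and was not called (adjusted p = 0.326). In RSV the matched locus (XLOC_032990) had 7.20, 8.04 and 5.12 FPKM in Acerra, against 0.684, 0.531 and 1.480 FPKM in Sarno (2.42 ± 0.29, adjusted p = 0.0075), again beside a gene that was not called, Solyc11g010660 (0.08 ± 0.09, adjusted p = 0.612). H listed none in this interval. XLOC_014894, 3367 bp from Solyc04g078380, had 5.34, 9.04 and 7.83 FPKM in Acerra, against 0.156, 0.980 and 0.914 FPKM in Sarno (2.80 ± 0.36, adjusted p = 0.0080).

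The SM loci lower in Acerra had a span of their own, except XLOC_022749, described below. XLOC_030635 (327 bp, chromosome 10) had 10.8, 14.0 and 7.43 FPKM in Acerra, against 57.8, 38.1 and 43.6 FPKM in Sarno (−2.09 ± 0.25, adjusted p = 0.0064). XLOC_028013 (438 bp, chromosome 9) had 15.1, 26.4 and 15.8 FPKM in Acerra, against 81.2, 48.5 and 84.5 FPKM in Sarno (−1.88 ± 0.29, adjusted p = 0.0140). XLOC_017372 (429 bp, chromosome 5) had 1.37, 1.73 and 1.86 FPKM in Acerra, against 8.49, 5.45 and 7.93 FPKM in Sarno (−1.84 ± 0.20, adjusted p = 0.0051). In each of them every Sarno value was above every Acerra value. XLOC_027960 (685 bp, 1618 bp from Solyc09g014470) had 3.59, 5.27 and 2.85 FPKM in Acerra, against 16.6, 11.3 and 15.9 FPKM in Sarno (−1.79 ± 0.24, adjusted p = 0.0090). XLOC_034920, 612 bp from Solyc12g027540, had 4.73, 2.58 and 4.82 FPKM in Acerra, against 8.88, 17.1 and 30.5 FPKM in Sarno (−1.97 ± 0.45, adjusted p = 0.0449). Of the 12 SM loci with the largest differences, 8 kept their call in all 6 fits that left out 1 library and XLOC_014894 and XLOC_028013 in 5, while XLOC_008606, described below, kept it in 2 and XLOC_034920 in 1.

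In RSV, 4 of the 6 largest increases in Acerra lay in the span of a gene. XLOC_035510 in the span of Solyc12g005340 had 6.39, 16.2 and 16.5 FPKM in Acerra, against 0, 0.463 and 2.38 FPKM in Sarno (3.49 ± 0.68, adjusted p = 0.0260). The gene rose as well, with 72.6 ± 17.998 FPKM in Acerra, against 15.9 ± 0.93 FPKM in Sarno (2.13 ± 0.18, adjusted p = 0.0026). XLOC_014701 in the span of Solyc04g005670 had 5.47, 9.08 and 8.75 FPKM in Acerra, against 0.261, 0.658 and 1.98 FPKM in Sarno (2.64 ± 0.45, adjusted p = 0.0177), and that gene rose by 0.73 ± 0.17 (adjusted p = 0.0442). XLOC_022801 in the span of Solyc07g063200 had 7.86, 9.23 and 6.05 FPKM in Acerra, against 1.02, 0.858 and 0.828 FPKM in Sarno (2.53 ± 0.18, adjusted p = 0.0018), while the gene was not called (0.80 ± 0.25, adjusted p = 0.0874). Apart from genes, XLOC_015818 lay 953 bp from Solyc05g053520 and had 9.21, 9.05 and 11.5 FPKM in Acerra, against 1.31, 0.531 and 4.51 FPKM in Sarno (2.30 ± 0.54, adjusted p = 0.0440).

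In the other direction in RSV, XLOC_014794 (chr4:57043727-57044479, 1667 bp from Solyc04g072610) had 21.4, 16.0 and 5.96 FPKM in Acerra, against 64.0, 56.4 and 88.5 FPKM in Sarno (−2.37 ± 0.45, adjusted p = 0.0241). XLOC_033094, 1568 bp from Solyc11g073040, had 0.194, 0.219 and 0.211 FPKM in Acerra, against 3.54, 2.46 and 3.83 FPKM in Sarno (−2.39 ± 0.20, adjusted p = 0.0024). XLOC_017204 on chromosome 5 had 1.003, 1.13 and 0 FPKM in Acerra, against 5.19, 4.18 and 6.35 FPKM in Sarno (−2.41 ± 0.47, adjusted p = 0.0258). At XLOC_030649, 297 bp from Solyc10g084080, the values were 0.136, 0.767 and 0.148 FPKM in Acerra, against 4.81, 4.72 and 2.12 FPKM in Sarno (−2.37 ± 0.40, adjusted p = 0.0171), and the matched loci of H (−2.14, adjusted p = 0.125) and SM (−2.29, adjusted p = 0.0614) did not pass the threshold. XLOC_033033, in the same 145841 bp span as the RSV locus of highest FPKM, had 0.745, 0 and 0.270 FPKM in Acerra, against 5.13, 2.87 and 15.4 FPKM in Sarno (−3.10 ± 0.61, adjusted p = 0.0270). Its highest value was in replicate 3. Of the 12 RSV loci with the largest differences, 5 kept their call in all 6 fits that left out 1 library (XLOC_022801, XLOC_032990, XLOC_014796, XLOC_033094 and XLOC_035519). XLOC_014794 kept it in 3, XLOC_033033, XLOC_017204 and XLOC_030649 in 2, and XLOC_035510, XLOC_014701 and XLOC_015818 in 1.

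Matched loci showed how far the response was shared. Of the 418 loci matched in all 3 varieties and tested in each, 38 were called in H, 35 in SM and 60 in RSV. Altogether 73 were called in 1 variety, 18 in 2 and 8 in all 3, and the remaining 319 in none. Loci called in 2 varieties had the same direction in every case: 10 of 10 between SM and H, 14 of 14 between RSV and H, and 18 of 18 between RSV and SM. The 10 were 28.6% of the SM calls and 26.3% of the H calls, the 14 were 23.3% of the RSV calls and 36.8% of the H calls, and the 18 were 30.0% of the RSV calls and 51.4% of the SM calls. Over the 418 loci the log2 fold changes had r = 0.669 between SM and H, 0.591 between RSV and H and 0.542 between RSV and SM, as a description across loci. The varieties have no library in common. Matched annotated loci were not counted in this way, so the sharing is not shown to be particular to longer unannotated loci. Without RSV Sarno replicate 3 the loci called in all 3 varieties numbered 9, and those called in at least 2 numbered 35 in place of 26. Without H Acerra replicate 2 or replicate 3 none was called in all 3, and 18 were called in at least 2. The number called in all 3 was 2 to 5 without H Acerra replicate 1, H Sarno replicate 1 or 3, SM Acerra replicate 2 or 3, or any one of the other RSV libraries. Without RSV Acerra replicate 1, 2 or 3 or Sarno replicate 1, those called in at least 2 varieties numbered 16 to 17.

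**Figure D4:**
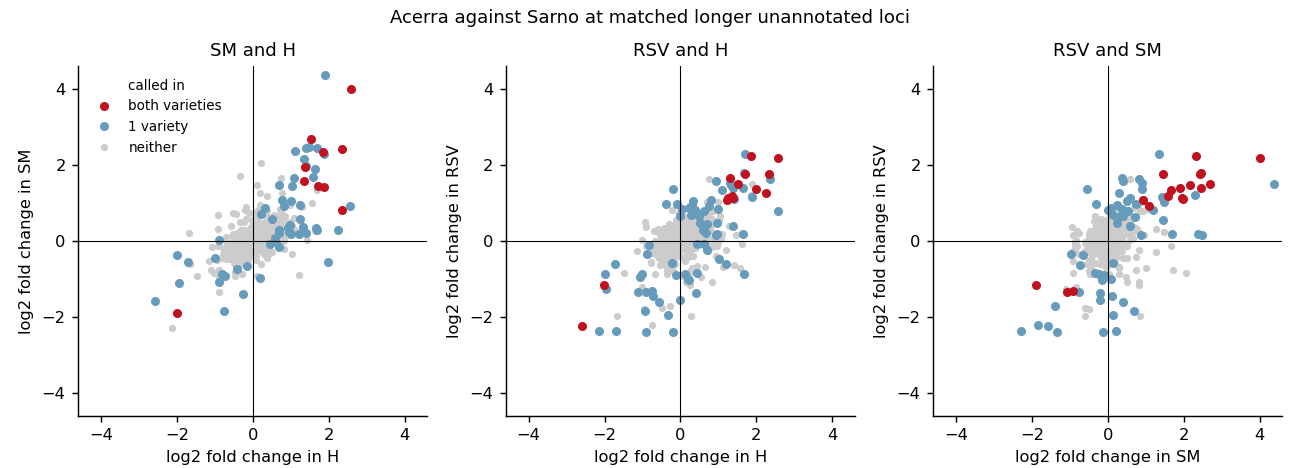
Log2 fold change, Acerra minus Sarno on the log2(FPKM + 0.5) scale, at the 418 longer unannotated loci matched and tested in all 3 varieties, with SM against H, RSV against H and RSV against SM; each point is a locus, coloured by how many of the 2 varieties called it. All loci called in both varieties lie in the upper right or lower left of the plot.

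Of the 8 loci called in all 3 varieties, 7 were higher in Acerra. Over all tested loci 6.58% were called higher in Acerra and 2.26% higher in Sarno in H. The shares were 6.07% and 2.14% in SM, and 6.11% and 5.72% in RSV. The strongest response in H and SM was at a locus of 702 to 895 bp between Solyc11g073070 and Solyc11g073080, less than 720 bp from the first. In H (XLOC_032879, chr11:53264446-53265341) it had 35.3, 44.1 and 44.9 FPKM in Acerra, against 5.78, 9.75 and 4.79 FPKM in Sarno (2.58 ± 0.26, adjusted p = 0.0174). In SM (XLOC_033077) it had 14.1, 21.1 and 21.3 FPKM in Acerra, against 0.286, 1.24 and 0.728 FPKM in Sarno (3.997 ± 0.32, adjusted p = 0.0018). In RSV (XLOC_032969) it had 23.4, 23.1 and 13.8 FPKM in Acerra, against 2.39, 3.30 and 7.39 FPKM in Sarno (2.18 ± 0.40, adjusted p = 0.0216). In each variety every Acerra library lay above every Sarno library. The response of SM exceeded that of H by 1.42 ± 0.44 and that of RSV by 1.81 ± 0.55 on the log2 scale, differences that did not pass the threshold (adjusted p = 0.289 and 0.190).

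The locus between Solyc09g011460 and Solyc09g011470 was 918 to 1500 bp long. Its H form, XLOC_027823 (chr9:4775338-4776838), had 33.3, 45.6 and 31.6 FPKM in Acerra, against 6.31, 5.68 and 8.67 FPKM in Sarno (2.34 ± 0.21, adjusted p = 0.0124). Its SM form, XLOC_027958, had 23.2, 35.6 and 34.95 FPKM in Acerra, against 2.91, 6.90 and 7.06 FPKM in Sarno (2.44 ± 0.34, adjusted p = 0.0098), and its RSV form, XLOC_027883, had 27.1, 24.8 and 19.7 FPKM in Acerra, against 8.59, 8.53 and 3.94 FPKM in Sarno (1.76 ± 0.30, adjusted p = 0.0186). Levels at each location were close in the 3 varieties. The locus between Solyc02g072150 and Solyc02g072160, at least 16317 bp from the nearest gene, had 35.6, 32.6 and 42.0 FPKM in Acerra, against 15.2, 14.0 and 8.90 FPKM in Sarno in H (XLOC_008547; 1.52 ± 0.22, adjusted p = 0.0196). In SM it had 12.9, 22.02 and 17.5 FPKM in Acerra, against 1.03, 5.203 and 1.79 FPKM in Sarno (XLOC_008606; 2.70 ± 0.48, adjusted p = 0.0214), and in RSV 19.5, 20.2 and 16.5 FPKM in Acerra, against 4.78, 5.37 and 9.45 FPKM in Sarno (XLOC_008557; 1.504 ± 0.25, adjusted p = 0.0169). Solyc02g072160, the nearest gene, was called in none of the varieties (adjusted p of 0.253, 0.822 and 0.578 in H, SM and RSV).

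Another 5 loci were called in all 3 varieties. Between Solyc10g054420 and Solyc10g054430 the log2 fold change was 1.85 ± 0.32 in H (XLOC_030544), 2.33 ± 0.29 in SM (XLOC_030715) and 2.24 ± 0.20 in RSV (XLOC_030629), with 2.93 to 6.07 FPKM in the 9 Acerra libraries and 0.146 to 1.31 FPKM in the 9 Sarno libraries. Between Solyc04g054320 and Solyc04g054330 it was 1.71 ± 0.31 (XLOC_014758), 1.46 ± 0.18 (XLOC_014860) and 1.77 ± 0.17 (XLOC_014782). Between Solyc12g044670 and Solyc12g044680 it was 1.36 ± 0.31 (XLOC_035514), 1.58 ± 0.26 (XLOC_035727) and 1.18 ± 0.15 (XLOC_035595). Between Solyc08g041860 and Solyc08g041870, within 330 bp of the first, it was 1.38 ± 0.28 (XLOC_025225), 1.96 ± 0.36 (XLOC_025384) and 1.12 ± 0.25 (XLOC_025304). There the neighbour Solyc08g041860 was called with the locus in SM (1.79, adjusted p = 0.0178) and RSV (1.67, adjusted p = 0.0045) but not in H (1.75, adjusted p = 0.118). The only shared locus lower in Acerra lay in the span of Solyc07g005890. In H (XLOC_022623) it had 0.735, 2.99 and 0.730 FPKM in Acerra, against 9.59, 6.36 and 4.55 FPKM in Sarno (−2.01 ± 0.47, adjusted p = 0.0491). In SM (XLOC_022749) it had 2.19, 1.63 and 1.79 FPKM in Acerra, against 7.19, 7.71 and 10.2 FPKM in Sarno (−1.90 ± 0.18, adjusted p = 0.0034), and in RSV (XLOC_022681) 2.13, 1.56 and 1.39 FPKM in Acerra, against 5.93, 3.91 and 3.55 FPKM in Sarno (−1.16 ± 0.23, adjusted p = 0.0271). Solyc07g005890 itself was called in SM only (−0.45 ± 0.10, adjusted p = 0.0462).

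**Figure D5:**
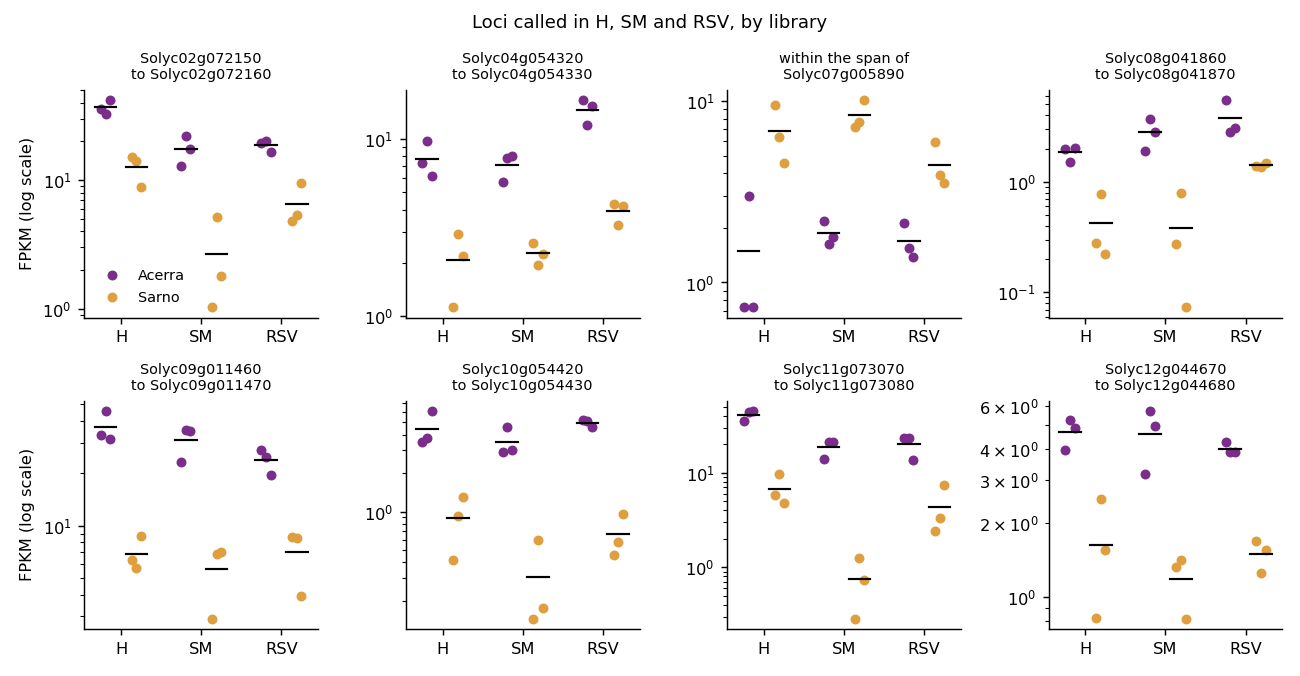
FPKM in each library (points, log axis) and the mean of the 3 libraries of a group (bars) at the 8 loci called in H, SM and RSV, each panel named by its flanking or overlapped genes, with Acerra left of Sarno. In 7 panels all Acerra points of a variety lie above its Sarno points, and in the span of Solyc07g005890 they lie below.

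Among the 18 loci called in 2 varieties, 15 were higher in Acerra and 3 higher in Sarno. Between Solyc06g073240 and Solyc06g073250 the log2 fold change was 2.46 ± 0.19 in SM (XLOC_020270) and 1.801 ± 0.23 in RSV (XLOC_020183), and 1.68 ± 0.64 in H, where it missed the threshold (adjusted p = 0.142). Between Solyc10g044460 and Solyc10g044470 it was 2.16 ± 0.14 in SM (XLOC_030662) and 1.47 ± 0.25 in RSV (XLOC_030591), and 1.34 ± 0.40 in H (adjusted p = 0.0827). The 3 in the other direction lay between Solyc05g023990 and Solyc05g024000 (−0.91 ± 0.21 in SM and −1.33 ± 0.18 in RSV), between Solyc12g007010 and Solyc12g007020 (−1.08 ± 0.15 in SM and −1.35 ± 0.16 in RSV) and between Solyc12g009060 and Solyc12g009070. At the last the locus of H (XLOC_034405) had 1.26, 0.974 and 0.693 FPKM in Acerra, against 13.4, 4.33 and 9.37 FPKM in Sarno (−2.58 ± 0.39, adjusted p = 0.0213), and that of RSV (XLOC_035519) had 0.131, 0.296 and 0.641 FPKM in Acerra, against 4.53, 3.61 and 2.3995 FPKM in Sarno (−2.24 ± 0.30, adjusted p = 0.0100). In SM the matched locus had a log2 fold change of −1.57 ± 0.60 (adjusted p = 0.161). These examples were picked from the 18 after their values were seen.

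Whether the location response of a matched locus differed between varieties was then tested as an interaction, over the 12 libraries of a pair. None of the longer unannotated loci passed in limma at an adjusted p under 0.05: 0 of 507 for SM minus H, 0 of 505 for RSV minus H and 0 of 514 for RSV minus SM, where 0.0792%, 0.0529% and 0.4% of all matched loci were called. The lowest adjusted p was 0.212, 0.104 and 0.0669. For RSV minus SM, 8 were called without RSV Sarno replicate 3, 5 without SM Sarno replicate 2 and 1 without RSV Acerra replicate 2; 1 was called for SM minus H without H Acerra replicate 1, and 1 for RSV minus H without RSV Sarno replicate 3 or H Sarno replicate 1. At an unadjusted p under 0.05 there were 52 (10.3%), 76 (15.05%) and 67 (13.04%), against 11.3%, 16.3% and 13.6% of annotated loci. The median standard error of a difference was 0.37, 0.35 and 0.33 on the log2 scale. A locus called in one variety and not in another is not shown to respond differently.

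The neighbouring genes gave the last comparison. Loci with a span of their own lay at a median of 4920, 4641 and 4290 bp from the nearest gene ID in H, SM and RSV. The median level of loci over 500 to 2000 bp from a gene was 1.06, 1.04 and 1.23 FPKM in H, SM and RSV, against 0.517, 0.609 and 0.760 FPKM beyond 10000 bp. The share called did not follow distance in the same way in the 3 varieties. In H it was 6.91% in shared spans and 6.67%, 10.2%, 6.12% and 6.21% in the classes up to 500, 2000 and 10000 bp and beyond, where 8.83% of all loci were called. In SM it was 6.22% in shared spans and 6.25%, 7.11%, 7.94% and 5.99% in the same classes (8.21% of all loci), and in RSV 9.81% in shared spans and 16.4%, 14.4%, 11.4% and 8.98% (11.8% of all loci). No test was made between these classes.

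Locus and gene moved most alike where they shared a span. Across loci that share the span of a gene, the log2 fold changes of locus and nearest gene had r = 0.453 in H (170 pairs tested), 0.524 in SM (194 pairs) and 0.516 in RSV (193 pairs). Some of these spans held several gene IDs. There distance could not choose between the genes, and the first gene ID was taken as the nearest. Tested or not, loci whose shared span held a single gene ID numbered 212, 181 and 175 (H, SM, RSV), out of 349, 351 and 350. At over 2000 to 10000 bp r was 0.0853, 0.177 and 0.126, and beyond 10000 bp −0.0668, 0.0128 and 0.0186. Between these distances it varied with the variety: 0.128, 0.510 and 0.332 at 1 to 500 bp (47, 49 and 53 pairs) and 0.406, 0.171 and 0.0658 at over 500 to 2000 bp. Locus and gene come from the same libraries, and in a shared span from overlapping reads in part, so these values describe the tables and carry no test. Where both were called in a shared span they had the same direction in the 1 case of H, the 6 of SM and the 4 of RSV.

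Few of these loci lay beside genes that the study describes by function or beside the ripening genes named above, 144 genes together. Many of the study's descriptions come from its lists of genes that differed between locations. A location difference at a described gene was thus partly built into the choice. Of the 144 genes, a longer unannotated locus lay within 2000 bp or in the span of one in 4 cases for H, 2 for SM and 4 for RSV. The only ones called were those in the span of Solyc04g015360, which the study describes as GATA transcription factor 9, a member of a family of zinc finger regulators of light- and nitrogen-dependent genes. In SM the locus (XLOC_014783, chr4:5545609-5550003) had 7.18, 4.13 and 5.67 FPKM in Acerra, against 1.36, 0.317 and 1.76 FPKM in Sarno (2.00 ± 0.41, adjusted p = 0.0325). The gene rose with it, with 73.6 ± 26.5 FPKM in Acerra, against 8.03 ± 2.70 FPKM in Sarno (3.10 ± 0.35, adjusted p = 0.0055). In H the locus (XLOC_014689) had 1.85, 3.59 and 5.16 FPKM in Acerra, against 0.548, 0.807 and 0.572 FPKM in Sarno (1.74 ± 0.34, adjusted p = 0.0345), and the gene had 139.7 ± 58.3 FPKM in Acerra, against 36.7 ± 34.5 FPKM in Sarno without passing the threshold (2.36 ± 0.81, adjusted p = 0.114). No longer unannotated locus was listed in this span in RSV.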

How the data were processed

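Per the labels and the study's methods, total RNA of red ripe fruit was made into TruSeq v2 libraries and sequenced as paired ends, the authors demultiplexed reads with CASAVA 1.8.2, aligned them with TopHat2 2.0.6 (H to SL2.40, SM and RSV to their own assemblies) and assembled and quantified loci with Cufflinks 2.1.1, with multi-read correction and the annotation as a guide. The deposited values are FPKM per locus and library, written with decimal commas; the scaling between libraries is not given in the sources used here. Columns of fold changes or p-values were not used. FPKM are not counts, so no count test was run; limma 3.58.1 (lmFit, eBayes with a trend; R 4.3.3) was fitted per variety on log2(FPKM + 0.5) for all loci whose 6 libraries averaged 0.5 FPKM or more, two-sided, with Benjamini-Hochberg adjustment over all loci and a threshold of 0.05. An interaction was fitted over the 12 libraries of each pair of varieties. An exact permutation test of 3 against 3 libraries cannot go below p = 0.1 and was not used. Tables were handled in Python 3.11.15 with pandas 2.3.3 and numpy 2.4.6, and plots were drawn with matplotlib 3.10.9.

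Loci were matched between varieties by identical flanking or overlapped gene IDs, one-to-one where each variety had 1 such locus. Distances and coordinates were taken within the table of each variety. Of the 34725 gene IDs in the H tables, 0 matched the RefSeq gene table, so gene IDs are given as the tables have them, with descriptions from the study's text only. Of the study's annotation of unannotated loci, only a part, for H, was read. No sequence is printed.

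The text names, per variety, the 6 loci of highest mean FPKM, the 6 largest differences in each direction among called loci that averaged 1 FPKM or more and whose locations did not overlap, up to 10 matched loci called in all 3 varieties, matched loci with an interaction (none), and called loci at described genes; a few of these are not printed, and loci outside the rule are named as chosen after their values were seen. The members and lists were chosen with earlier results of these data known. The fit was tested on data with known answers before use. Alternatives were the pseudocount, the minimum FPKM, the scaling, the replicate number as a block, the length minimum, the exclusion of shared spans and each library left out.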

Additional observations from a re-analysis of the deposited data

How the results depend on the processing

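The numbers of longer unannotated loci in H, SM and RSV and the 915 shared intervals stayed within 1.5 times with a minimum length of 1000 bp, without shared spans and, for the intervals, with 1 flanking gene enough. Calls between Acerra and Sarno stayed within 1.5 times in all 3 varieties with either other pseudocount, with a minimum of 1 FPKM and without shared spans. Under the other settings they did not do so in every variety. With no minimum FPKM, when more loci were tested, 11 were called in H, 17 in SM and 73 in RSV. Over all loci 253, 314 and 1031 were called there. Over 1000 bp, 54 were called in SM, while the 64 of H and 107 of RSV stayed within 1.5 times. In H, 54 were called with median-ratio rescaling and 40 with quantile normalization, where 1051 and 831 of all loci were called. Leaving out 1 library gave 0 to 85 calls in H, a range of 26 to 78 for SM and one of 36 to 268 for RSV; loci called in all 3 varieties numbered 0 to 9 and those called in at least 2 varieties 16 to 35, an alternative chosen after seeing the data. Differing responses numbered 0 to 1 for SM minus H, 0 to 1 for RSV minus H and 0 to 8 for RSV minus SM, and 0 under every other setting run.

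With the replicate number as a block, 55 were called in H, 76 in SM and 70 in RSV. Same-numbered libraries deviated together with r of 0.115, 0.0530 and 0.0184 in H, 0.238, −0.0083 and 0.106 in SM, and 0.275, −0.0321 and 0.128 in RSV, not above 0.1 in every pair, so the numbers were not taken to pair samples. In no variety did every library correlate best with its own number.

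In the fits that left out 1 library, the 58 called loci under the naming rule kept their call 198 times and lost it 150 times. With no minimum FPKM, 14 of them kept it and 44 lost it. The largest differences were named only where the locations did not overlap, so leaving out a library could not reverse their sign. Under no setting did any of the 58 change sign. Some uncalled strong loci did, all without passing the threshold: with quantile normalization XLOC_013295 (−0.073), XLOC_027386 (−0.20), XLOC_000083 (−0.18) and XLOC_032893 (−0.41) in H, and with median-ratio rescaling XLOC_032893 (−0.11). Leaving out 1 library gave −0.15 to 0.23 for XLOC_032893, −0.39 to 0.052 for XLOC_027869 and −0.55 to 0.16 for XLOC_000900 in H, −0.27 to 0.055 for XLOC_018470, −1.11 to 0.28 for XLOC_000899 and −0.59 to 0.32 for XLOC_000909 in SM, and −1.34 to 0.11 for XLOC_027933 and −1.22 to 0.14 for XLOC_000897 in RSV. The cause of these moves was not tested. FPKM without fragment counts leave the precision of low values unknown.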
